A study of Mus musculus with 25 samples.

Results

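Microglia, the resident macrophages of the central nervous system, were compared between 2 ways of sorting them from the mouse spinal cord. The members were the 13 libraries that were sorted as mixed (8 libraries) or as resident (5 libraries) without injury or 2, 3 or 10 days after spinal cord injury, out of 25 libraries in the series. Raw counts of unique molecular identifiers (UMIs) were summed over all cells that the authors' cell type code 1 marks in each library, which gave 8809 microglia (5135 mixed, 3674 resident) of the 13289 microglia and 30958 cells in the series. Levels are given as CPM, the counts of a gene per 1000000 UMIs of the summed cells.

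Mixed libraries came from mice labelled Cx3cr1CreERT2 and from all YFP-positive cells of a 5 mm lesion segment. Resident libraries came from mice labelled Cx3cr1CreERT2:R26tdTomato, and from cells positive for both RFP and YFP. Cx3cr1CreERT2 is an inducible Cre recombinase targeted to the Cx3cr1 locus, and R26tdTomato is a red reporter at the Gt(ROSA)26Sor locus that Cre switches on, so cells that made Cx3cr1 when Cre was induced keep the red label. All mice carried the Cre allele. How many copies of each allele the mice carried, their age and when Cre was induced are not given in the sources used here. The mixed group held 1 laminectomy control library (Ctrl), 2 at day 2 (D2), 3 at day 3 (D3) and 2 at day 10 (D10). The resident group held 1 at Ctrl, 1 at D2, 2 at D3 and 1 at D10. Each library pooled tissue of 1 to 3 mice and counted as 1 replicate. Sort and strain went together in all 13 libraries, so the 2 cannot be told apart, and both sexes occurred in both groups. At Ctrl the mixed library was female and the resident library male, and at D10 the mixed libraries were male and the resident library female, so sort and sex cannot be told apart at these 2 time points.

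Cx3cr1 encodes the receptor for fractalkine, a chemokine on neurons, and is among the genes by which microglia are recognised. Type I interferons act through transcription factors that bind an element called ISRE in the promoters of their target genes. These interferon-stimulated genes encode antiviral effectors, sensors and feedback regulators, and MHC class I genes are also among the targets.

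Over the 9152 genes that passed a filter on low counts, 20 differed between mixed and resident microglia at an adjusted p of 0.05 (edgeR quasi-likelihood test with time point as a term), which is 0.219% of the genes tested. Of these, 18 were lower in mixed libraries (0.197% of those tested) and 2 were higher (0.0219%). The 18 were Cx3cr1, the chemokine receptor gene Ccr1, 14 of the 37 tested members of a list of interferon-stimulated genes, and Phf11a and Ifi206, whose relatives are on that list. Hpgds was among the 2 higher genes. The median log2 difference (mixed minus resident) of all genes tested was -0.01, and 384 genes had an unadjusted p under 0.05 (4.2%).

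Promoter sequences of the interferon-stimulated genes are shown because the ISRE core is the feature that these genes are known for. The window was the 250 bases before the start site in the RefSeq promoter table (GRCm38.p6), and the motif was GAAA, any 2 bases and GAAA again on either strand (TTTC, any 2 bases and TTTC on the other), with overlapping matches allowed. A match was found for 7 of the 15 called genes with an entry (46.7%), for 3.37% of the 7410 tested genes with an entry and for 3.46% of all 27025 symbols in the table. Within the list of interferon-stimulated genes, 5 of 10 called members with an entry held it (50%), as did 12 of 21 members that were not called (57.1%). A match describes letters and does not show that a factor binds. The stretches below are of 110 bases, 5′ to 3′ along the gene's strand, with the motif in capitals. They lie at chr4:156200831-156200940 for Isg15, chr5:120907526-120907635 for Oas1a, chr8:71537540-71537649 for Bst2 and chr14:59297523-59297632 for Phf11a, all on the minus strand, and at chr19:34583340-34583449 on the plus strand for Ifit3.
Isg15: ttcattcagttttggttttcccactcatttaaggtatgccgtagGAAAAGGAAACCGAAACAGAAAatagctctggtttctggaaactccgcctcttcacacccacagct
Oas1a: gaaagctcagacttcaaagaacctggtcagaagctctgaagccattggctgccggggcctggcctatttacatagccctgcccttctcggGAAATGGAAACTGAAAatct
Bst2: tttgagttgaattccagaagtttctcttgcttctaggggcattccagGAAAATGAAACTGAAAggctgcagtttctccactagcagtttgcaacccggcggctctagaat
Phf11a: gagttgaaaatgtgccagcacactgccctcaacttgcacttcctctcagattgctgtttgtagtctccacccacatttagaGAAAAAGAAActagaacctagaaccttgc
Ifit3: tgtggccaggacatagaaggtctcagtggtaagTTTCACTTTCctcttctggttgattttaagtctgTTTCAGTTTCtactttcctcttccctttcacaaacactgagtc
Isg15 held 3 overlapping matches, Oas1a and Bst2 held 2 overlapping matches each, and Ifit3 held 2 separate matches in the other orientation. The stretch of Ifit3b (chr19:34607736-34607845) was identical to that of Ifit3 in all 110 bases. Ifit3 and Ifit3b are near-identical copies, so how reads were split between them is uncertain. No match was found in the windows of Cx3cr1, Ccr1 or Hpgds. The called list members Ifitm3, Oasl1, Ifit2, Xaf1 and Oasl2 held none either.

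Microglia summed to between 135097 and 7794902 UMIs per library, from 23 to 1500 cells. The median UMI count per microglia ranged from 1577 to 3810 in mixed libraries and from 1947 to 3963 in resident libraries (exact permutation p = 0.0611 within time points, 2-sided, adjusted p = 0.472 over 17 measures). None of the 17 measures, which took in depth, mitochondrial and ribosomal shares and markers of other cell types, passed an adjusted p of 0.05. With a smallest p of 0.00556 over 17 measures, a single measure could not have passed, so this says nothing about their similarity. The mitochondrial share of the counts separated the sorts in opposite directions at D3 and D10. At D3 it was 0.820%, 1.11% and 1.48% in mixed and 2.22% and 2.50% in resident libraries, and at D10 it was 1.63% and 1.74% in mixed against 0.576% in the resident library. Of 13 mitochondrial genes 13 were below 0 at D3 and 0 at D10, and none was called over all time points. Their part in the results was not tested. Monocyte markers summed to 0 to 44.4 CPM in mixed and 8.87 to 42.9 CPM in resident microglia, and macrophage markers, among them Ifitm3, to 372 to 3457 CPM and 690.5 to 3111 CPM. None of the 8 monocyte and 8 lymphocyte markers passed the filter, while all 10 microglia markers did. Of other lists, 7 of 9 macrophage, 6 of 8 oligodendrocyte, 6 of 8 astrocyte and 3 of 8 border macrophage markers passed it. So did 1 of 7 neutrophil, 2 of 8 dendritic cell, 2 of 8 neuron, 3 of 8 endothelial and 3 of 5 erythroid markers. Fcrls, a microglia marker, was at 881 to 2208 CPM in mixed and 1832 to 2281 CPM in resident libraries. The mixed libraries lay in 3 sequencing pools and the resident libraries in 3 others, so pool and sort cannot be told apart. D3_mixed 1 and 2 had a pool of their own. D2_mixed 2 and D3_mixed 3 were under 50% microglia, at 3.05% and 14.4% of their cells. The barcodes of 16 microglia occurred in 2 of the 13 libraries.

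Cx3cr1 (chromosome 9, 119901616 to 120069879, GRCm38) was lower in every mixed library than in any resident library. In mixed libraries it was at 201 CPM at Ctrl, at 10.0 and 66.6 CPM at D2, at 4.12, 16.9 and 78.6 CPM at D3 and at 85.0 and 70.1 CPM at D10. In resident libraries it was at 1609 CPM at Ctrl, 464 CPM at D2, 643 and 339.9 CPM at D3 and 786 CPM at D10. The lowest resident library, D3_resident 2, was thus above the highest mixed library, the control. The log2 difference was -3.61 (SE 0.41, edgeR adjusted p = 0.00225), or 12.2-fold lower, and it was -2.96 at Ctrl, -4.49 at D2, -3.71 at D3 and -3.34 at D10. In both sorts the control library held the highest level. Reads of Cx3cr1 come from the locus that was targeted in all mice.

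Ccr1, which encodes a receptor for inflammatory CC chemokines, had a lower measured level in every mixed library than in any resident library. It was found with 31 counts in all 8 mixed libraries together and 363 counts in the 5 resident libraries. Its level was 0.179 CPM at Ctrl, 10.5 and 0 CPM at D2, 2.06, 0 and 1.26 CPM at D3 and 0.409 and 0.934 CPM at D10 in mixed libraries, where 21 of the 31 counts came from D2_mixed 1. In resident libraries it was 29.7 CPM at Ctrl, 26.6 at D2, 29.8 and 16.9 at D3 and 22.6 at D10. The log2 difference was -3.89 (SE 0.55, edgeR adjusted p = 0.00979), with -6.92 at Ctrl, -1.49 at D2, -4.24 at D3 and -5.02 at D10. It was -5.26 without D2_mixed 1 and -5.22 without D2_resident 1. Groups that do not overlap over the 13 libraries were seen for 8 of the 9152 genes (0.0874%). For 5 of them all mixed libraries were the lower ones (0.0546%), among them the 4 called genes Cx3cr1, Ccr1, Ifit3b and Ifi206. The values of Ifit3b and Ifi206 in D2_mixed 2 rested on 1 and 0 counts. The start sites of Ccr1 (chromosome 9, 123962124 to 123968692) and Cx3cr1 are 3.90 Mb apart. Of the genes within 2 Mb of Cx3cr1, by the lower coordinate of each gene, 25 were tested and none was called, with a median log2 difference of -0.03. Of those within 2 Mb of Gt(ROSA)26Sor, 22 were tested and none was called (median 0.04). Neither set had a gene at an unadjusted p under 0.05 in edgeR. Gt(ROSA)26Sor itself was not tested.

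**Figure D1:**
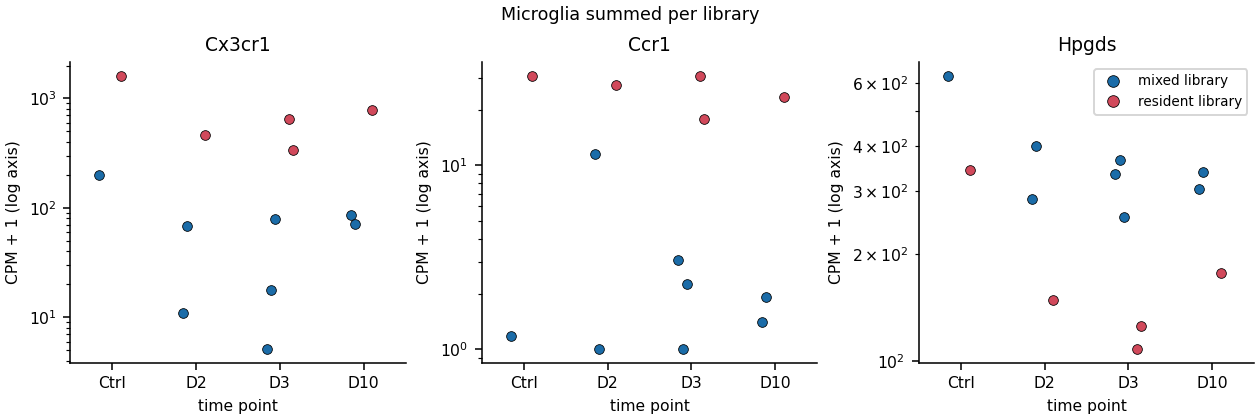
Levels of Cx3cr1, Ccr1 and Hpgds in summed microglia (vertical axis, CPM plus 1, log scale) by time point (horizontal axis), with 1 point per library, blue for mixed and red for resident. All resident libraries lie above all mixed libraries for Cx3cr1 and Ccr1, and at each time point the mixed libraries lie above the resident ones for Hpgds.

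Other chemokine receptor and microglia genes did not pass the test. Of the 5 tested chemokine receptors, Ccr1 and Cx3cr1 were the 2 called. Among 30 homeostatic microglia genes none was called and 1 had an unadjusted p under 0.05, namely P2ry12, a receptor for ADP. P2ry12 was at 145 to 3590.3 CPM in mixed and 165 to 1420.3 CPM in resident libraries (log2 difference 0.90, SE 0.30, edgeR adjusted p = 0.712), with -0.61 at D2 and 1.38, 1.64 and 0.85 at Ctrl, D3 and D10. The median of the 30 homeostatic genes was -0.17 (-0.79 at D2, with 29 of 30 below 0, and 0.18, -0.17 and 0.15 at Ctrl, D3 and D10), and that of 30 injury and disease-associated genes was -0.03, also with no call. None of 33 cell cycle genes was called either (median -0.14), but their medians were -2.03 at Ctrl, with 32 of 33 below 0, and 0.47 at D2, with 1 of 33 below 0. No gene was called among 84 ribosomal protein genes (median -0.04).

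Of the 37 tested interferon-stimulated genes, 14 were called and lower in mixed microglia. All 37 had a fitted log2 difference over the time points below 0, against 52.6% of all genes tested. The list's median was -1.35, and its members ran from -3.12 for Oasl1 to -0.23 for Irf9. No member was called as higher in mixed libraries, and 31 of the 37 had an unadjusted p under 0.05 on the lower side, where 2.7% of all genes did. The number of called members moved with single libraries. It was 1 without Ctrl_mixed 1, Ctrl_resident 1, D2_resident 1 or D3_resident 1, and 2 without D2_mixed 1, D2_mixed 2 or D10_mixed 2. It was 5 or 6 without D3_mixed 3 or D3_resident 2, 10 to 13 without D3_mixed 1, D3_mixed 2 or D10_mixed 1, and 24 without D10_resident 1. Over the 26 alternative settings, the median of the members tested ran from -1.76 to -1.13. Among these settings, members above 0 occurred with D3 libraries alone (33 of 34 below) and with male libraries alone (35 of 36 below).

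**Figure D2:**
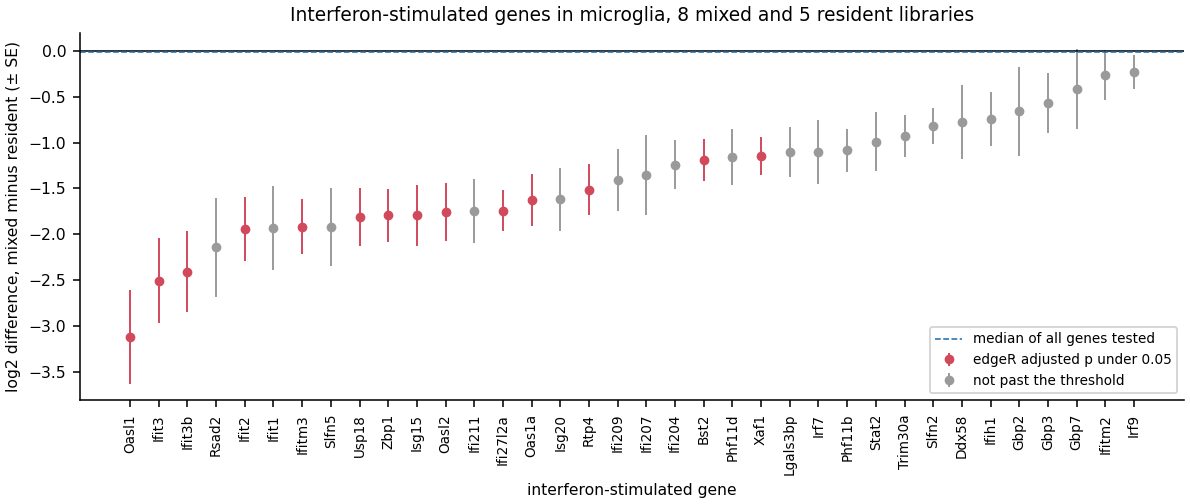
Log2 difference of mixed minus resident microglia (vertical axis, with its SE) for 36 of the 37 tested interferon-stimulated genes (horizontal axis), in red where the edgeR adjusted p was under 0.05. All points lie below 0, from -3.12 for Oasl1 to -0.23 for Irf9, and the dashed line at -0.01 marks the median of all genes tested.

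Summed over the 37 genes, the level was 1505 CPM in the mixed and 4456 CPM in the resident control. At D2 it was 2054 and 2709 CPM in mixed libraries against 5171 CPM. At D3 it was 3061, 1479 and 2689.7 CPM in mixed against 8549 and 7341 CPM in resident libraries, the largest gap in CPM of the 4 time points. At D10 it was 2110.2 and 1936 CPM against 3046 CPM. Within each time point every mixed library was below every resident library, but across time points the groups overlapped, since D10_resident 1 was just below D3_mixed 1. Abundant genes weigh most in these sums. In D3_resident 1, Ifi27l2a, Bst2 and Ifitm3 made 2287, 1193 and 1159 of the 8549 CPM. By the list's median log2 difference, the gap was larger at Ctrl (-1.80) than at D3 (-1.67).

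Among single effectors, Ifi27l2a was the interferon gene with the smallest p. It was at 103 CPM in the mixed and 369.5 CPM in the resident control, at 357 and 207 against 856 CPM at D2, at 998, 326 and 634 against 2287 and 2375 CPM at D3, and at 237 and 235 against 772 CPM at D10. The mixed libraries were the lower ones at all 4 time points, by similar log2 differences of -1.80, -1.56, -1.85 and -1.71 at Ctrl, D2, D3 and D10. The log2 difference over all was -1.75 (SE 0.22, edgeR adjusted p = 0.00448). It was called in 24 of 26 alternative settings, as was Cx3cr1, the exceptions being D3 libraries alone and male libraries alone. The other 13 called members of the list were called in 6 (Isg15) to 14 (Ifitm3) of the settings that tested them, with 7 for Ifit2 and Bst2 and 8 for Ifit3 and Ifit3b. Ifitm3, a membrane protein that blocks virus entry and that is also on the macrophage marker list, was at 54.1 to 292 CPM in mixed libraries (median 143) and at 228 to 1159 CPM in resident libraries (median 549.8). It was 3.78-fold lower in mixed microglia (log2 difference -1.92, SE 0.30, edgeR adjusted p = 0.0191).

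The IFIT genes, whose products bind viral RNA, lie close together on chromosome 19. Ifit3 (34583531 to 34588731) was at 17.0 CPM in the mixed and 146 CPM in the resident control, and over all mixed libraries ran from 1.69 to 81.4 CPM (median 27.2) against 52.8 to 276 CPM. Its log2 difference was -2.51 (SE 0.46, edgeR adjusted p = 0.0320). Ifit2 differed by -1.94 (SE 0.35, adjusted p = 0.0318 in edgeR) and Ifit3b by -2.41 (SE 0.44). At D10 the log2 differences of Ifit3, Ifit3b and Ifit2 were small, at -0.39, -0.37 and -0.004. Ifit2 overlapped there, with 23.1 and 17.5 CPM in mixed libraries and 20.4 CPM in the resident library. Ifit1 did not pass, at -1.93 (edgeR adjusted p = 0.168).

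Oasl1, Oasl2 and Oas1a, 3 genes related to sensors of double-stranded RNA, were also called. Oasl1 was at 0.357 CPM in the mixed and 13.5 CPM in the resident control and differed by -3.12 (SE 0.51, edgeR adjusted p = 0.0229). Oasl2 differed by -1.76 and Oas1a by -1.62 (SE 0.32 and 0.29). The nucleic acid sensor Zbp1 was at 5.00 to 45.3 CPM in mixed and 23.5 to 173 CPM in resident libraries (log2 difference -1.79, SE 0.29, edgeR adjusted p = 0.0229). Usp18, an inhibitor of interferon receptor signalling that also removes ISG15 from proteins, was 3.51-fold lower (log2 difference -1.81, SE 0.32).

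The called genes Isg15, Rtp4, Bst2, Xaf1 and Ifi206 fell outside the naming rule and were chosen after their values were seen. Isg15, a ubiquitin-like modifier, was at 27.9 CPM in the mixed and 173 CPM in the resident control but at 85.2 and 52.1 CPM in mixed and 65.6 CPM in resident libraries at D10, so that the sorts overlapped there (log2 difference over all -1.79, SE 0.33). Bst2, which tethers virus particles to the cell surface, differed by -1.19, Rtp4 by -1.51 and Xaf1 by -1.15. Ifi206, of the Ifi200 family of DNA sensors, differed by -2.87 (SE 0.50) and was called in 9 of 24 settings. Phf11a, which the rule names, was at 3.38 to 10.3 CPM in mixed and 8.87 to 51.6 CPM in resident libraries (log2 difference -1.86, SE 0.31, edgeR adjusted p = 0.0229). It was called in 9 of 25 settings. Members of the Ifi200 and Phf11 families resemble one another, which makes their counts uncertain.

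The transcription factor genes Stat2, Irf7 and Irf9 were not called. Their log2 differences were -0.99, -1.10 and -0.23 (edgeR adjusted p = 0.628, 0.590 and 1.00). The guanylate-binding proteins Gbp2, Gbp3 and Gbp7 differed by -0.66, -0.57 and -0.42, each with an edgeR adjusted p of 1.00. At D10 the differences of these 3 genes were above 0, at 2.01, 1.40 and 1.93.

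None of the 15 tested MHC class I genes was called. Over all time points the 15 tested members were below 0, with a median of -0.59, but at Ctrl 7 of 15 were below 0 and the median was 0.04, against 15, 14 and 15 below 0 at D2, D3 and D10, a difference between time points that was not called for any gene in edgeR. Of the 9152 genes tested, 4707, 4821, 4321 and 4627 were below 0 at Ctrl, D2, D3 and D10. Among the 15, 9 had an unadjusted p under 0.05 over all time points on the lower side, where 2.7% of all genes did. H2-K1, a classical class I heavy chain, came closest (log2 difference -1.36, SE 0.27, edgeR adjusted p = 0.0603), with -0.03 at Ctrl, -1.77 at D2, -2.01 at D3 and -0.66 at D10. It was called in 6 of 26 alternative settings, among them without Ctrl_mixed 1, without Ctrl_resident 1 and with injured libraries only. H2-Q7 differed by -2.00 and the peptide transporter Tap1 by -0.84. Class I genes are close copies of each other, so their counts are uncertain. Of 9 MHC class II genes 5 were below 0 and none was called. Among chemokine ligands Cxcl10, an interferon-induced ligand, differed by -2.47 (SE 0.67, edgeR adjusted p = 0.304) and Ccl2 by -1.35 (adjusted p = 0.280 in edgeR). Of the 12 tested ligands 7 were below 0.

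Across time points the interferon genes differed most at Ctrl, D2 and D3 and least at D10. The list's median log2 difference was -1.80 at Ctrl, -1.55 at D2, -1.67 at D3 and -0.21 at D10, while the median of all genes tested lay between -0.04 and 0.03. Members below 0 numbered 37, 36, 36 and 26 of 37 at these time points, against 4707, 4821, 4321 and 4627 of the 9152 genes. For 34 of the 37 the difference at D10 was the highest of the 4 time points. A dependence of the sort difference on time point was nevertheless called for no gene in edgeR, with 326 genes at an unadjusted p under 0.05 (3.56% of 9152), of which 12 were among the 37. Without D3_mixed 3, a dependence on time point was called for 528 genes (5.81%), 13 of them on the list, and DESeq2 with all libraries called 13 genes. DESeq2 filtered genes by its own rule, so its 13 calls are not a share of the same 9152 genes. For Ifi27l2a the unadjusted p for the dependence on time was 0.979 in edgeR.

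**Figure D3:**
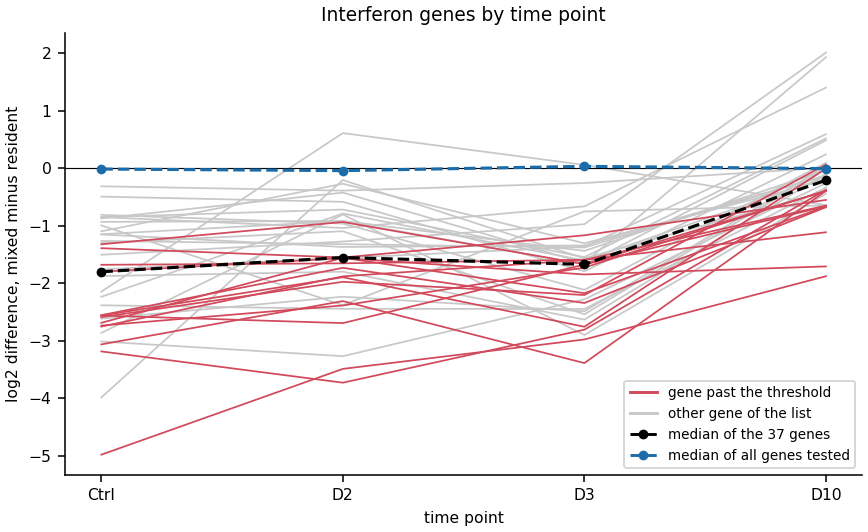
Log2 difference of mixed minus resident microglia (vertical axis) by time point (horizontal axis) for each of the 37 interferon-stimulated genes, red where the gene was called over all time points, with the list's median in black and that of all genes tested in blue. The list's median runs from -1.80 at Ctrl to -0.21 at D10, and the blue line stays near 0.

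To see how the difference was spread over cells, each microglia was thinned to 1000 UMIs, and 0 to 11 shallower cells per library were left out. The mean number of interferon-list UMIs per thinned cell was 1.49 in mixed and 4.41 in resident microglia at Ctrl, 2.36 and 2.26 against 5.04 at D2, 2.94, 1.56 and 3.00 against 8.86 and 7.49 at D3, and 2.17 and 1.92 against 3.09 at D10. The 10% of cells with the most such UMIs held 32.4% to 45.5% of them in mixed libraries and 24.1% to 40.5% in resident libraries. With those cells left out the mean per cell was 1.03 to 2.25 in mixed and 2.26 to 7.42 in resident libraries. At each time point the mixed libraries stayed below the resident ones in this mean too. Free RNA in the droplets, which would add such UMIs to all cells, was not estimated, and its part in these values was not tested.

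The same held within the authors' clusters, which carry numbers and no names. A time point and cluster with at least 20 microglia in at least 1 library of each sort occurred 13 times. In all 13, each mixed library had a lower summed level of the 37 genes than each resident library. The 13 combinations are cuts of the same libraries as the whole sums, so they are not independent results. At Ctrl and D2 each combination held 1 library of each sort. In cluster 3 at D3, mixed libraries were at 1399 to 3395 CPM and resident libraries at 8737 and 9155 CPM. In cluster 3 at D10 the values were closest, with 1852 and 2218 CPM against 2595 CPM. All control microglia lay in cluster 1, which held no injured cell. Which genes defined the clusters is not given in the sources used here.

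**Figure D4:**
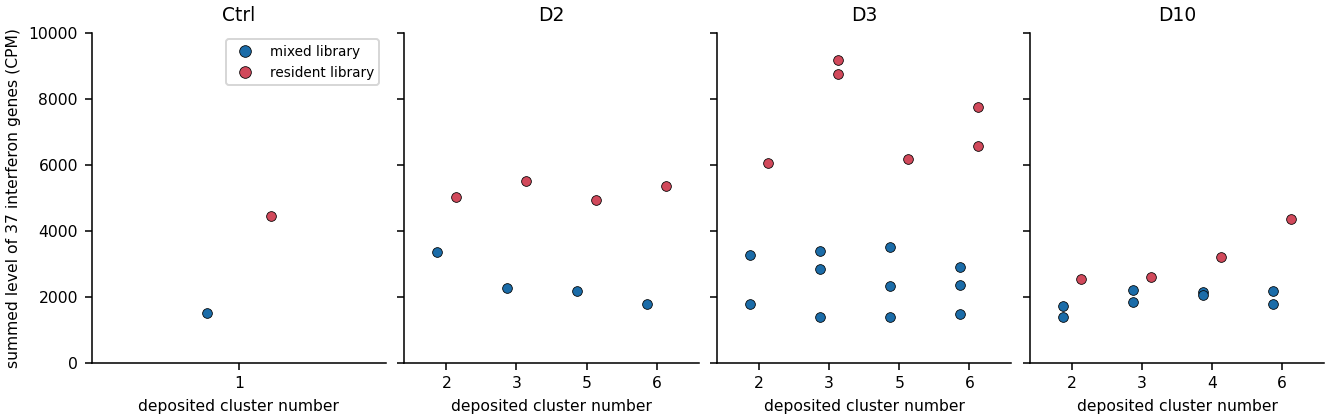
Summed level of the 37 interferon-stimulated genes (vertical axis, CPM) in microglia of each deposited cluster (horizontal axis) and time point (panels), 1 point per library with at least 20 cells in the cluster. Red points (resident) lie above blue points (mixed) in all 13 combinations, with the smallest gap in cluster 3 at D10.

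Hpgds was higher in mixed microglia. It encodes hematopoietic prostaglandin D synthase, which makes prostaglandin D2. It was at 627 CPM in the mixed and 341 CPM in the resident control, at 284 and 399.7 against 147 CPM at D2, at 334, 365 and 252 against 107 and 124 CPM at D3, and at 303 and 337 against 176 CPM at D10. The mixed libraries were the higher ones at each of the 4 time points. The log2 difference was 1.15 (SE 0.17, edgeR adjusted p = 0.0120), or 2.21-fold, and 21 of 26 alternative settings called it.

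The number of calls moved with single libraries. Leaving out any one of Ctrl_mixed 1, Ctrl_resident 1, D2_resident 1, D2_mixed 1, D2_mixed 2, D3_resident 1, D3_resident 2, D3_mixed 3 or D10_mixed 2 left 3 to 9 called genes, and leaving out D10_resident 1 gave 39. Without D3_mixed 1, D3_mixed 2 or D10_mixed 1 the counts were 17, 19 and 18. Cx3cr1, Ccr1 and Ifi27l2a were called whichever library was left out.

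Libraries outside the comparison gave further values. In mixed microglia of day 1 (D1), Cx3cr1 was at 6.13, 4.27 and 6.96 CPM, and the summed interferon level at 1096, 1321 and 2065 CPM, while the 8 mixed libraries compared had 4.12 to 201 CPM and 1479 to 3061 CPM. Only 2 infiltrating libraries, sorted as YFP-positive and RFP-negative cells from Cx3cr1CreERT2:R26tdTomato mice, held 20 or more microglia, so no test was made. D10_infiltrating 2, from the strain of the resident libraries and the sequencing pool of the D10 mixed libraries, held 36 microglia. Cx3cr1 was there at 47.6 CPM (4 counts, 95% exact Poisson interval 12.96 to 122, which covers counting error only), with 85.0 and 70.1 CPM in the D10 mixed libraries and 786 CPM in D10_resident 1. The summed interferon level was 2330.2 CPM. D21_infiltrating 1 held 41 microglia. In these 2 libraries the cells coded as microglia stood apart, with macrophage markers at 16633 and 11486 CPM against 372 to 3457 CPM in the 13 libraries compared, and the part of macrophage RNA in their values was not tested. The macrophage gene Ms4a7 was at 642 and 670.1 CPM there against 0 to 142 CPM, and erythroid markers were at 19652 CPM in D21_infiltrating 1. D21_infiltrating 1 had 195 CPM of Cx3cr1 (126 to 288) and D21_mixed 1 had 18.1 CPM (14.4 to 22.4).

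Macrophages, the authors' cell type code 2, were examined for the same genes, in 8 mixed and 7 infiltrating libraries with at least 20 such cells. Here 1 of 6893 tested genes was called (0.0145%), and it was Cx3cr1 (log2 difference, mixed minus infiltrating, -3.60, SE 0.38, edgeR adjusted p = 6.33e-04). Its level in mixed macrophages was 8.47 and 0 CPM at D1, 4.78 and 10.4 CPM at D2, 8.47 CPM at D3, 26.03 and 21.1 CPM at D10 and 11.9 CPM at D21. In infiltrating macrophages it was 47.8 and 20.4 CPM (D1), 35.5 CPM (D2), 169 CPM (D3), 430.2 and 465 CPM (D10) and 241 CPM (D21). Mixed libraries were lower at every time point. The 465 CPM of D10_infiltrating 2 and the 26.03 and 21.1 CPM of the D10 mixed libraries come from 1 sequencing pool.

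In macrophages 36 of the 37 interferon genes were below 0, with a median of -0.61 against -0.0096 for all genes and 51.4% of all genes below 0, but none was called in edgeR. Hpgds differed by 1.06 (edgeR adjusted p = 0.496) and Ccr1 by -1.37 (adjusted p = 0.390 in edgeR). Macrophages in the resident libraries had summed interferon levels of 11381 CPM at D2, 14666 and 13756 CPM at D3 and 2626 CPM at D10, and those in mixed libraries of the same time points had 4718 and 8901 CPM, 3143 CPM, and 5771 and 5063 CPM. At D10 the order of the sorts in macrophages was thus the opposite of that in microglia, a difference that was not tested.

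**Figure D5:**
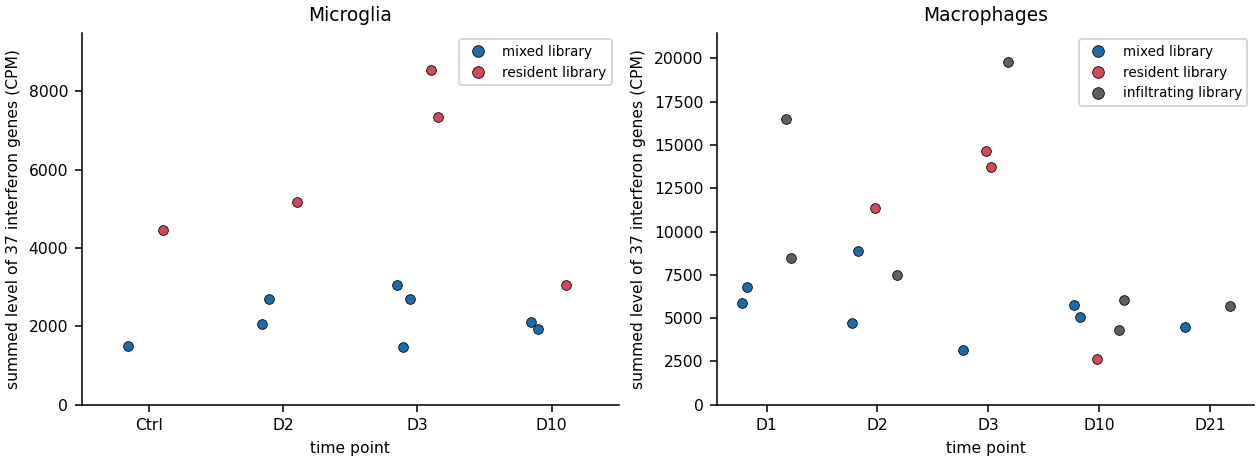
Summed level of the 37 interferon-stimulated genes (vertical axis, CPM) by time point (horizontal axis) in microglia (left) and macrophages (right), 1 point per library, coloured by sort. In microglia the resident libraries lie above the mixed ones at each time point, with 8549 and 7341 CPM at D3, and in macrophages the resident library lies below the mixed ones at D10.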

How the data were processed

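The members and the gene lists were chosen with earlier results of these data known. Droplet 3′ libraries were made from sorted myeloid cells. The authors deposited whole-number UMI counts per gene and cell, and a table with mitochondrial percent, pool, cluster and cell type codes per cell. Cell Ranger 3.1.0 and GRCm38 are named in the submitters' processing notes. The deposited counts equalled the table's UMI totals for all 30958 cells, and no further cell filter or doublet caller was applied.

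Counts were summed per library over code 1 (at least 20 cells) and tested in edgeR 4.0.16 (R 4.3.3; TMM scaling, filterByExpr, quasi-likelihood test, Benjamini-Hochberg adjustment, 2-sided) with sort and time point as terms. Standard errors are the log2 difference divided by the square root of F. DESeq2 1.42.0 was an alternative. The interaction of sort and time was tested against the additive fit. Library measures were compared by exact permutation within time points (180 arrangements, smallest p 0.00556). On simulated counts for this comparison (9152 genes) 55 of 100 genes changed 2-fold and 98 of 100 changed 4-fold were recovered. Those counts were drawn with the spread that the fitted trend gives at each gene's mean level. They had no gene-specific spread and no library that stood apart, so recovery in the real data may be lower. P-values measure the spread between libraries. No pair of libraries of 1 group agreed within sampling noise (chi-square per degree of freedom 1.77 to 20.3).

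Genes named were Cx3cr1, up to 12 per direction among calls with at least 20 CPM in the higher sort and 1 sign at all 4 time points, up to 4 per list by p, and calls within 2 Mb of the targeted loci; not all list members are printed. Coordinates are from GENCODE M21, which matched 22226 of 22439 symbols. The library with conflicting labels at D3, and sex-linked genes, were not used, and some genes are not reported here.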

Additional observations from a re-analysis of the deposited data

Results flagged for a closer look

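Of the 13 genes named for the largest differences, 3 values in libraries outside the comparison lay above both control libraries beyond counting error (95% exact Poisson intervals). Ccr1 was at 72.4 CPM (63.7 to 81.8) in microglia of D1_mixed 2 and at 155 CPM (143 to 167) in D1_mixed 3, where the mixed and resident controls had 0.179 and 29.7 CPM, and D1_mixed 1 had 14.7 CPM. The 13 libraries compared were all at 29.8 CPM or lower, so D1_mixed 2 and 3 lay above them and D1_mixed 1 did not. Macrophages of D1_mixed 3 had 662 CPM of Ccr1, and their part in the microglial value was not tested. Ifi27l2a was at 517 CPM (497 to 538) in microglia of D21_mixed 1, with 103 CPM in the mixed and 369.5 CPM in the resident control.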

How the results depend on the processing

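No paired analysis was possible because the replicate numbers of mixed and resident libraries are not shared in the labels. Of the 20 genes called between mixed and resident microglia, all kept their direction in each of the 26 alternatives that tested them. The count of calls was 20 with median-of-ratios scaling and 16 with a sex term. It was 61 with DESeq2, 102 with no filter on low counts, 5 with at least 50 cells, 5 without cluster 2, 5 without clusters 6, 7 and 10, 7 at equal depth (2237 genes tested), 4 without libraries under 50% microglia, 6 with injured libraries only, and 31 without the pool of 2 D3 mixed libraries, an alternative added after seeing the data. It was 0 with D3 libraries only (360 genes at an unadjusted p under 0.05 in edgeR) and 0 with male libraries only (160 such genes, 6 libraries), and 3 to 39 with 1 library left out. For the dependence on time point, the count of 0 became 137 with no filter, 13 with DESeq2 and 0 to 528 with 1 library left out. Between mixed and infiltrating macrophages the 1 call became 117 with DESeq2, 70 with no filter and 1 to 5 with 1 library left out. The cause of these shifts was not tested. No library measure passed an adjusted p of 0.05 in any of 15 alternatives, which the number of arrangements does not allow for a single measure. A pool term could not be fitted, and cluster 1 alone left no residual degrees of freedom. At 3 of 4 time points the resident sort had 1 library, so the spread came from the other groups.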
